A study of Mus musculus with 24 samples.

Results

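Genes for making cholesterol, fatty acids and the sphingolipids of myelin were followed in sorted cortical nuclei of WT and Kdm6b-cKO mice. The set holds 43 genes of the 25135 in the expression tables. They were chosen by name from knowledge of the pathways, not from their values, although results from these libraries were already known when the names were picked. The sterol group has 26 genes, of which 18 are enzymes of cholesterol synthesis, 5 regulate it and 3 act in sterol turnover and transport. The fatty acid group has 11 genes and the sphingolipid group has 6.

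Kdm6b encodes a histone demethylase that removes the repressive H3K27me3 mark, and the study asked how its loss in the cortex affects cells that make myelin. WT mice were Kdm6b wt/wt and Kdm6b-cKO mice were Emx1-Cre; Kdm6b f/f, all on a SUN1-GFP nuclear reporter and a C57BL/6 background. Cortices were taken on day 1 (P1) or day 30 (P30) after birth, GFP-positive nuclei were sorted by fluorescence (FANS), and 6 libraries, numbered 0 to 5 here, were sequenced for each genotype and age, 24 in all. Emx1-Cre acts in dorsal telencephalic progenitors, so Kdm6b is deleted in glutamatergic neurons and astrocytes as well as in oligodendrocytes of that origin, while oligodendrocytes from ventral sources lie outside the lineage. The genotype given for the WT mice does not name Emx1-Cre. Their nuclei were nevertheless sorted by the reporter that the study used to label Emx1-lineage cells in both genotypes. The number of animals behind a library and which of the 2 sequencers read it are not given in the sources used here. The p-values therefore measure the spread between libraries, which may be in part technical.

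Cholesterol is built in the cell from acetyl-CoA through mevalonate, squalene and lanosterol, and the transcription factors SREBF1 and SREBF2 switch on the enzymes when sterol runs low. Cholesterol made within the brain has to serve it, because little passes the blood-brain barrier, and myelin takes up much of it. Myelin is also rich in galactosylceramide and sulfatide, sphingolipids with very long and often hydroxylated fatty acid chains. All values here are of nuclear RNA, which includes transcripts not yet exported.

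The libraries differed in ways that touch these genes. Depth, estimated from the steps that single reads leave in low values, was 803000 to 3920000 reads in WT and 188000 to 2860000 in Kdm6b-cKO at P1, and 5130000 to 8340000 and 1940000 to 8070000 at P30. At P1, 4 of the WT libraries but 1 of the Kdm6b-cKO libraries had over 100 olfactory receptor genes above 0. Rn45s, the 45S ribosomal RNA precursor, exceeded 1000 FPKM (fragments per kilobase of transcript, scaled to the library total) in 5 WT and 3 Kdm6b-cKO libraries of P30. Those 3 Kdm6b-cKO libraries were also the shallowest of that age. Rn45s was 1629 to 4027 FPKM in the 5 WT libraries, and 3034, 15420 and 25878 in Kdm6b-cKO libraries 2, 3 and 4. Within this class its level was therefore not matched between genotypes. At P1 Rn45s was 3239 and 3423 FPKM in Kdm6b-cKO libraries 1 and 0 and 28.7 to 899 in the other 10 libraries. Whole-gene Kdm6b was at 24.9 to 51.0 FPKM in WT and 15.0 to 38.4 in Kdm6b-cKO at P1, and at 16.9 to 26.4 and 17.5 to 28.1 at P30. The ranges overlapped at both ages, and the floxed part of the gene was not analysed here, so this level does not check the labels. Markers of glutamatergic neurons were present in every group, with summed levels of 423 to 673 FPKM in WT at P1 and 325 to 675 at P30, and markers of GABAergic neurons, which arise outside the Emx1 lineage, summed to 663 to 1453 and 41.5 to 529 FPKM in the same libraries.

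Promoter sequences were available from RefSeq (build GRCm38.p6) for 36 of the 43 genes, with 50 promoters between them. The 250 bases before the transcription start were searched on both strands for 4 short motifs, none of which overlaps another in the sequences shown here. The CCAAT box, bound by NF-Y, a partner of the SREBF factors, occurred in 28 of these 50 promoters and in 33.8% of all 32851 promoters of the same length, or in 26 of the 36 genes and 37.5% of all genes. The E-box CACGTG occurred in 8 of the 50 and in 6.02% of all. The sterol response element in the form TCACNCCAC occurred in 1 of the 50, that of Hmgcs1, and in 1.05% of all. The SOX-type core ACAAAG occurred in 7 of the 50 and in 16.5% of all. These letter matches describe the windows and do not show binding.

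The 5 members whose libraries did not overlap between genotypes at one of the ages are shown in the 5′ to 3′ direction of the gene, because the comparisons below turn on them. Capitals mark the motif matches on either strand. The Hsd17b7 window is chr1:169969206-169969455 on the minus strand and holds 3 CCAAT boxes, 1 E-box and 1 SOX-type core. The Srebf1 window, chr11:60222582-60222831 on the minus strand, is the first of its 3 listed promoters and holds 1 CCAAT box. The Gal3st1 window, chr11:3983386-3983635 on the plus strand, is also the first of 3 and holds 1 CCAAT box. The windows of Elovl6 (chr3:129532136-129532385, plus strand) and Fads2 (chr19:10101504-10101753, minus strand) hold none of the 4 motifs and so have no capitals.
Hsd17b7: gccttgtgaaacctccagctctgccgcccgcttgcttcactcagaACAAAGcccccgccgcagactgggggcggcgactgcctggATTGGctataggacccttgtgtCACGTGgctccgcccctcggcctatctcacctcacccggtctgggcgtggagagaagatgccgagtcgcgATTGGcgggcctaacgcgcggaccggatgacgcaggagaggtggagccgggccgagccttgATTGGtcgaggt
Srebf1: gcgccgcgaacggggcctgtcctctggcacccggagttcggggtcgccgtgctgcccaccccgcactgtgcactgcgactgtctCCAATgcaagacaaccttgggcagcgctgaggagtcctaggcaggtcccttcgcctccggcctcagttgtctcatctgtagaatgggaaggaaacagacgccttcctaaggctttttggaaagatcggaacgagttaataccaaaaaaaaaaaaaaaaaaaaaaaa
Gal3st1: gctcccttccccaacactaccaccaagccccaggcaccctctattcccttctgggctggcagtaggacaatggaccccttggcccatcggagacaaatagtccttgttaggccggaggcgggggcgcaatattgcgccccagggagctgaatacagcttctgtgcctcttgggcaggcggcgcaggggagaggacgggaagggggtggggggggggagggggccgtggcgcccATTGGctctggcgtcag
Elovl6: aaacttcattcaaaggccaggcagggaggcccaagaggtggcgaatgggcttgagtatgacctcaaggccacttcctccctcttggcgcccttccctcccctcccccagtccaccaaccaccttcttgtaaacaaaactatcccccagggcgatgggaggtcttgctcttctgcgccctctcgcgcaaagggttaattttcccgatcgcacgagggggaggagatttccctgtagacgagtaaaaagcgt
Fads2: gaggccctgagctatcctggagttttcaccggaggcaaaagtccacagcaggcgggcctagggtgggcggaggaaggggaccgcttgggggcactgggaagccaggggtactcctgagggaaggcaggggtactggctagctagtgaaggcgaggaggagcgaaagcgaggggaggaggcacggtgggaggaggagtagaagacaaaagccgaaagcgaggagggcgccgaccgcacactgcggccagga

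In WT nuclei most of the synthesis genes were listed at lower levels at P30 than at P1. The 2 ages were normalized in separate tables, so these levels are set side by side without a test. All 6 P30 libraries lay below all 6 P1 libraries for 25 of the 43 members, and all lay above for 6, against 29.1% and 14.5% of the 16449 genes with a WT mean of at least 1 FPKM at either age. The sterol enzymes were the main part of this, with 13 of 18 below and 0 above. Sqle, the squalene epoxidase, had a WT mean of 78.7 ± 25.6 FPKM (SD, n = 6) at P1 and 6.54 ± 1.80 at P30. Acat2, the cytosolic thiolase that starts the pathway, had 154 ± 45.3 and 10.5 ± 1.79. Of the fatty acid genes 8 of 11 lay below at P30, among them Fads2, a desaturase of polyunsaturated fatty acids, with 74.1 ± 13.5 and 8.74 ± 2.25.

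A few genes stood at the other side. Cyp46a1, the neuronal hydroxylase that turns cholesterol into a form that leaves the brain, had a WT mean of 31.5 ± 14.5 FPKM at P1 and 190 ± 10.9 at P30. Gal3st1, the sulfotransferase that makes sulfatide, had 0.928 ± 0.501 and 5.34 ± 1.28. Fa2h, which hydroxylates the fatty acids of myelin sphingolipids, had 0.597 ± 0.456 and 4.71 ± 2.44, and its P1 values rest on 1 to 3 reads per WT library. The rest of the genes whose P30 libraries all lay above were Sptlc1, Elovl1 and Scap. Hmgcs1 and Idi1, early enzymes of the pathway, were close to absent from the P30 tables: Hmgcs1 was listed at 0 in 4 of 6 libraries of each genotype, and Idi1, at 0 to 6 reads per library, had a WT mean of 0.111 FPKM. The 2 genes were therefore not tested at P30.

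**Figure D1:**
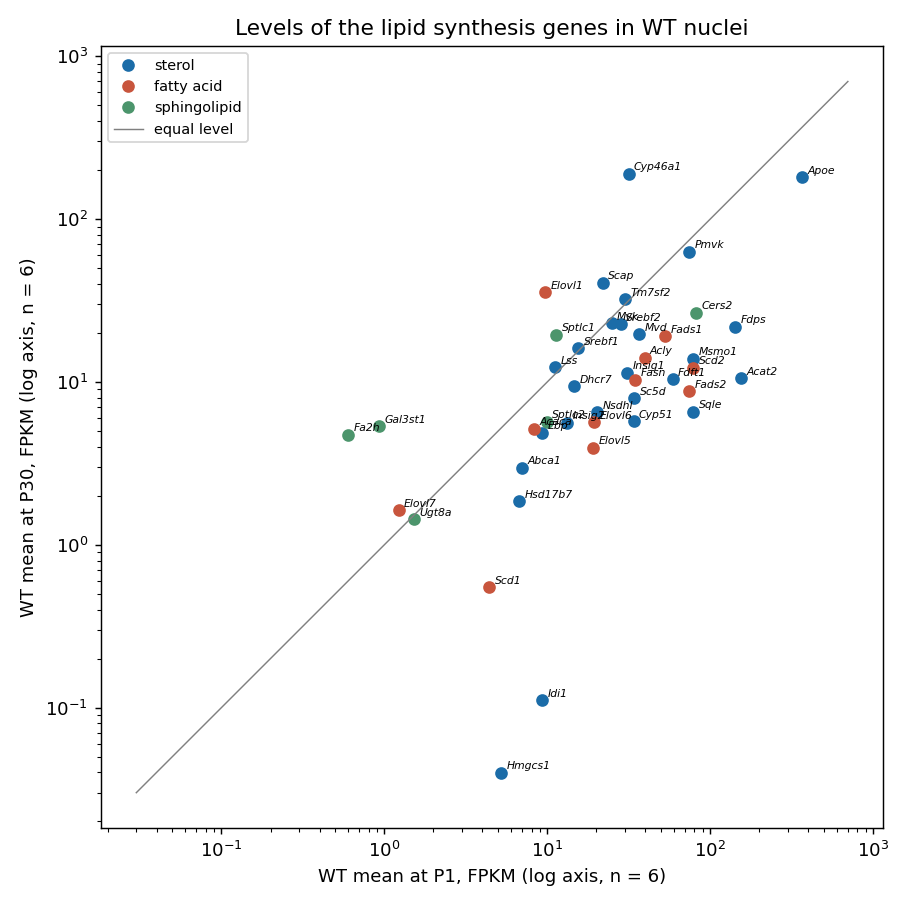
Mean level of each of the 43 genes in WT nuclei at P1 (horizontal axis) and P30 (vertical axis), both in FPKM on log axes with 6 libraries per age, coloured by group, with a line of equal level. Most sterol and fatty acid genes lie under the line (Sqle, 78.7 and 6.54), whereas Cyp46a1, Gal3st1 and Fa2h lie above it.

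Within an age, Kdm6b-cKO was set against WT by limma, using log2(FPKM + 0.1) and keeping genes that averaged 1 FPKM or more across the 12 libraries. Fold changes are on that log2 scale, negative where Kdm6b-cKO was lower, and for low genes they depend on the pseudocount: it shrinks most of them, but a single library at 0 can make one larger than the change of the means. A gene was called where the Benjamini-Hochberg adjusted p over all genes tested was under 0.05 and the change was over 2-fold. At P1, 16250 genes were tested and 40 of the 43 members were among them, without Elovl7, Fa2h and Gal3st1. At P30, 13289 genes and again 40 members were tested, without Hmgcs1, Idi1 and Scd1.

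At P1 no member was called and none passed the adjusted p, and the same held for all 16250 genes (0% called). Levels in Kdm6b-cKO leaned low: 35 of 40 members had a fold change below 0, with a median of -0.50, where 63.2% of all genes were lower with a median of -0.25. After quantile normalization the medians were -0.64 and -0.02, and 36 of 40 members were lower. At an unadjusted p under 0.05, 14 members were lower and 0 were higher, against 7.77% of all genes lower and 6.7% higher. In 3 members every Kdm6b-cKO library was under every WT library, against 0.683% of all genes. In bulk nuclei, fewer cells of a type and less RNA per cell cannot be told apart.

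The fatty acid group had the most even pattern at P1, with 10 of 10 tested members lower and 6 at an unadjusted p under 0.05 (Acaca, Acly, Scd2, Elovl6, Fads1 and Fads2). Its summed level ran from 304 to 384 FPKM in WT (median 349) and from 154 to 279 in Kdm6b-cKO (median 195). The libraries of the genotypes did not overlap in this sum, which contains Fads2 and Elovl6, themselves without overlap. No share over all genes was formed for such sums. Fads2 (mm9, chr19:10138654-10175993, minus strand) had 61.1 to 100 FPKM in WT with a median of 71.2, and 9.60 to 61.0 in Kdm6b-cKO with a median of 26.0. The genotypes were separated only narrowly, by the highest Kdm6b-cKO library and the lowest WT library. The fold change was -1.47 ± 0.37 (SE), with an adjusted p of 0.180 and an exact permutation p of 0.00216, the smallest that the 924 splits of 12 libraries allow.

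Fads1, the partner desaturase that acts after Fads2 on polyunsaturated chains, had 41.9 to 73.7 FPKM in WT (median 50.2) and 12.8 to 43.8 in Kdm6b-cKO (median 26.0). A single Kdm6b-cKO library reached the WT range, and the fold change was -1.03 ± 0.28 with an adjusted p of 0.182. Scd2, the main stearoyl-CoA desaturase of brain, which makes monounsaturated chains, had 51.4 to 98.1 FPKM in WT (median 83.9) and 18.8 to 56.6 in Kdm6b-cKO (median 45.9). Its fold change was -0.92 ± 0.28 with an adjusted p of 0.192, and the ranges met at 1 library of each side. Scd1 is a close paralog, and reads shared between these 2 genes could be split by the counting, so both levels are uncertain.

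Elovl6, a fatty acid elongase, had 15.8 to 25.1 FPKM in WT (median 18.8) and 10.2 to 15.1 in Kdm6b-cKO (median 13.8), with no overlap. The fold change was smaller than that of the desaturases, -0.55 ± 0.22, with an adjusted p of 0.277 and an exact permutation p of 0.00216. Acly, the citrate lyase that supplies acetyl-CoA to both pathways, had a narrow WT range of 37.6 to 41.6 FPKM (median 39.5) against 21.0 to 38.2 in Kdm6b-cKO (median 27.1). Of its Kdm6b-cKO libraries, 4 were under the whole WT range and the other two reached the lowest WT values, with a fold change of -0.49 ± 0.21 and an adjusted p of 0.312. Acaca, the carboxylase that commits acetyl-CoA to fatty acids, had 5.54 to 10.1 FPKM in WT (median 8.55) and 2.60 to 6.89 in Kdm6b-cKO (median 5.13), with a fold change of -0.78 ± 0.33 and an adjusted p of 0.307. Its groups overlapped because 1 WT library lay at 5.54 FPKM, under 3 of the Kdm6b-cKO libraries. The 4 tested members above an unadjusted p of 0.05 ran from -1.18 for Scd1 to -0.02 for Elovl1, with standard errors of 0.26 to 0.80.

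In the sterol group 23 of 26 members were lower at P1, 7 of them at an unadjusted p under 0.05, and 6 of those 7 are enzymes (Mvd, Idi1, Sqle, Cyp51, Hsd17b7 and Sc5d). The summed level of the 18 enzymes nevertheless overlapped widely, at 646 to 1143 FPKM in WT and 448 to 1244 in Kdm6b-cKO. Acat2 was the most abundant enzyme, with 119 to 234 FPKM in WT (median 131) and 59.2 to 439 in Kdm6b-cKO (median 179). Its Kdm6b-cKO libraries spanned the whole WT range on both sides, and its fold change was 0.06 ± 0.41 as analysed and -0.43 after quantile normalization. Pmvk, phosphomevalonate kinase, had the highest fold change of the group, 0.44 ± 0.23, which did not pass the test.

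Sqle (mm9, chr15:59146632-59162747, plus strand) had 60.2 to 123 FPKM in WT (median 66.0) and 22.5 to 78.6 in Kdm6b-cKO (median 31.1). Of the Kdm6b-cKO libraries 5 were under the whole WT range and 1 was inside it. The fold change was -1.15 ± 0.31 with an adjusted p of 0.182. Mvd, the decarboxylase that makes isopentenyl diphosphate, had 26.7 to 55.2 FPKM in WT (median 35.2) and 9.39 to 27.0 in Kdm6b-cKO (median 16.6), with a fold change of -1.08 ± 0.29 and an adjusted p of 0.182. The ranges of Mvd met only at their ends, and its locus overlaps the annotated gene Gm20388 on the other strand.

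Hsd17b7 (mm9, chr1:171879666-171899372, minus strand), a ketosteroid reductase of the demethylation steps after lanosterol, had 4.99 to 8.26 FPKM in WT (median 6.50) and 0 to 4.74 in Kdm6b-cKO (median 2.59). The genotypes did not overlap, and 1 Kdm6b-cKO library was listed at 0. The fold change was -2.24 ± 0.81 with an adjusted p of 0.233 and an exact permutation p of 0.00216, but it was -1.41 with a pseudocount of 1, since it leans on the low values. Without the 2 libraries of high Rn45s, the 0 among them, it was -0.996. Idi1, the isomerase of isopentenyl diphosphate, had 6.80 to 12.1 FPKM in WT (median 8.79) and 0 to 8.66 in Kdm6b-cKO (median 5.15), with 3 Kdm6b-cKO libraries inside the WT range, and its fold change of -1.90 ± 0.89 had an adjusted p of 0.343. Here too a single library was at 0, and the value was -1.23 with a pseudocount of 1 and -2.48 with 0.01. Sc5d, a sterol desaturase late in the pathway, had 26.9 to 45.03 FPKM in WT (median 31.7) and 4.28 to 34.6 in Kdm6b-cKO (median 20.8). Cyp51, the lanosterol demethylase, had 25.6 to 43.1 FPKM in WT (median 34.1) and 14.4 to 35.1 in Kdm6b-cKO (median 22.7). Both overlapped between genotypes, with fold changes of -0.98 ± 0.41 and -0.52 ± 0.24 and adjusted p-values of 0.300 and 0.340.

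Among the regulators at P1, Srebf2, the factor that acts mainly on cholesterol genes, had 18.3 to 36.4 FPKM in WT (median 28.7) and 1.19 to 21.9 in Kdm6b-cKO (median 11.9). The Kdm6b-cKO libraries were widely spread: 3 lay at or under 5.67 FPKM and the other three at 18.0 or more, beside the lowest WT library. The fold change was -1.77 ± 0.59 with an adjusted p of 0.211. Srebf1, which acts mainly on fatty acid genes, had nearly equal medians of 15.0 FPKM in WT and 15.1 in Kdm6b-cKO, and its fold change was -0.28 ± 0.36. Apoe, the lipoprotein of astrocytes that carries cholesterol between brain cells, was the most abundant member at P1, with 272 to 554 FPKM in WT (median 340) and 234 to 430 in Kdm6b-cKO (median 323). The genotypes overlapped almost fully, and the fold change was -0.14 ± 0.25 (adjusted p of 0.805), but after quantile normalization it was -0.80 with an adjusted p of 0.0860. The 19 sterol members at an unadjusted p above 0.05 ran from -1.78 for Nsdhl, a dehydrogenase of the demethylation steps, to 0.44 for Pmvk, with standard errors of 0.23 to 1.07.

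Of the sphingolipid genes 2 of 4 tested were lower at P1 and 1 had an unadjusted p under 0.05. Cers2, the ceramide synthase for very long chains and the most abundant member of the group, had 55.6 to 116 FPKM in WT (median 77.2) and 27.8 to 91.2 in Kdm6b-cKO (median 42.5). The groups overlapped, since 2 Kdm6b-cKO libraries lay at 88.9 and 91.2 FPKM, and the fold change was -0.71 ± 0.32 with an adjusted p of 0.324. Sptlc1, a subunit of the serine palmitoyltransferase that opens sphingolipid synthesis, had 8.99 to 13.4 FPKM in WT (median 11.3) and 7.39 to 19.2 in Kdm6b-cKO (median 12.9), with a fold change of 0.16 ± 0.27. Ugt8a, which makes galactosylceramide, had a fold change of -1.55 ± 0.93 and was listed at 0 in 2 Kdm6b-cKO libraries. At this age the 17 markers of myelin and mature oligodendrocytes summed to 53.5 to 87.1 FPKM in WT and 31.6 to 84.8 in Kdm6b-cKO. Of these, 10 of 14 tested were lower, 2 of them at an unadjusted p under 0.05. The 10 astrocyte markers summed to 151 to 222 FPKM in WT and 93.1 to 171 in Kdm6b-cKO, with 9 of them lower and 4 at that threshold. The 9 markers of oligodendrocyte precursors summed to 84.5 to 108 and 60.4 to 171, with 7 of 8 tested lower and 3 at that threshold. Lists of other cell types leaned low as well. Of the glutamatergic neuron markers 7 of 9 were lower (3 at that threshold), and of the microglia markers 8 of 10 (2, with 1 higher). For GABAergic neurons 6 of 10 tested were lower (1), and for endothelial and mural cells 6 of 9 (0). Of all genes 63.2% were lower, and 7.77% were lower at that threshold. No marker of these lists was at 0 in all P1 libraries. The part of these shifts in the P1 values of the lipid genes was not tested.

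**Figure D2:**
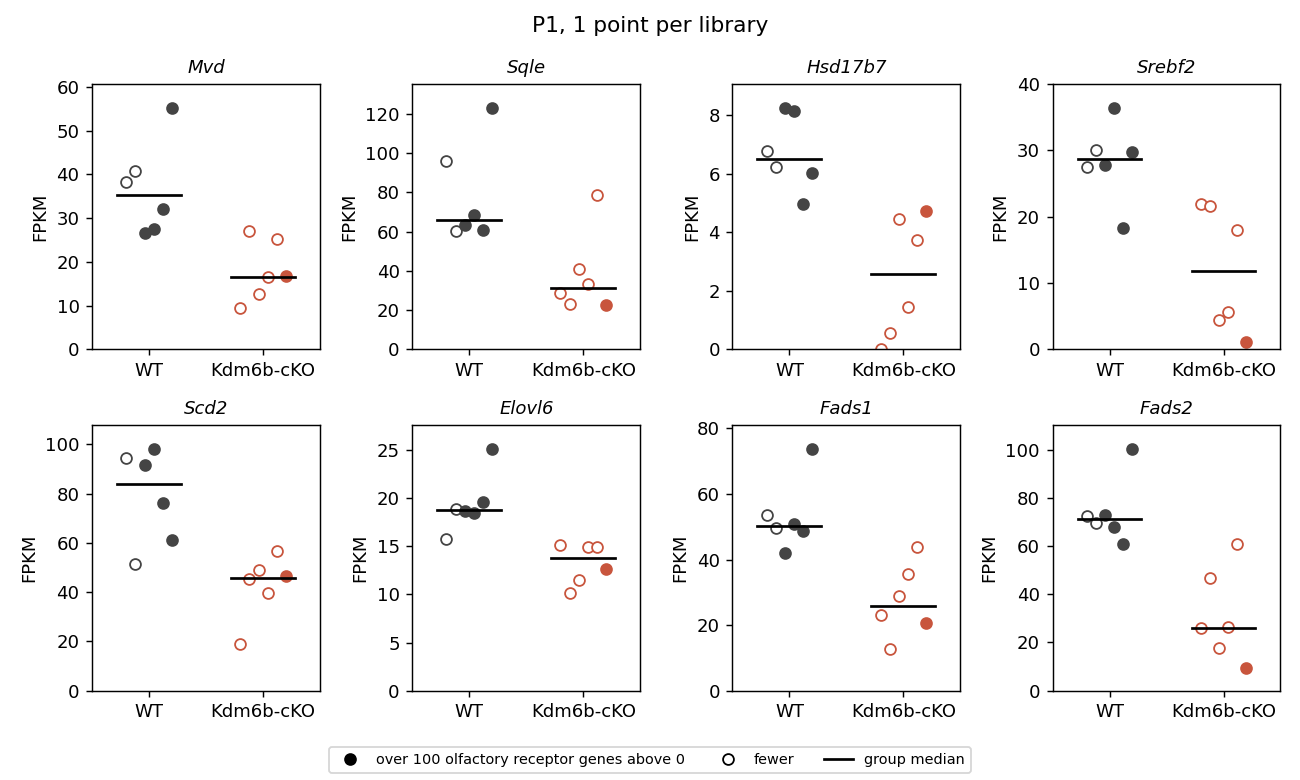
FPKM of 8 members in each P1 library, with WT left and Kdm6b-cKO right in each panel (6 libraries each); lines are group medians and filled points are libraries with over 100 olfactory receptor genes above 0. All Kdm6b-cKO libraries lie below WT for Hsd17b7, Elovl6 and Fads2, the last by a narrow gap from 61.0 to 61.1 FPKM.

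The 14 lower members were lower in both classes of P1 library, with and without olfactory receptor signal. They were picked for being lower in these same libraries, so this agreement is no separate check. Its share over all genes was not computed. The class with the signal holds 4 WT libraries and a single Kdm6b-cKO library, the shallowest at 188000 reads. The class without it holds 2 WT and 5 Kdm6b-cKO libraries. For 10 members the difference was larger in the class with the signal, as for Fads2, at -2.94 against -1.15, and Sqle, at -1.74 against -1.03. For 4 it was smaller, as for Hsd17b7, at -0.49 against -2.56, and Idi1, at -0.22 against -2.24. With so few libraries the exact permutation p cannot go below 0.200 with the signal or 0.0476 without it, and it was 0.200 and 0.143 for Fads2. In an alternative chosen after seeing the data, each library was weighted by its depth, and 3 members were then called, Srebf2 at -1.76, Mvd at -1.03 and Fads2 at -1.24, beside 2.5% of all genes. Without Kdm6b-cKO library 4, 2 members were called, Sqle at -1.39 and Fads2 at -1.72, beside 51 of 16585 genes (0.308%). Without the 2 shallowest libraries, which are both Kdm6b-cKO, none was called and 10 members were lower at an unadjusted p under 0.05, beside 12.2% of all genes.

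The 2 P1 Kdm6b-cKO libraries with high Rn45s stood apart from the other four for 17 of 40 tested members (42.5%), 6 higher and 11 lower, and for 28.5% of all genes. Scap had 50.0 and 50.2 FPKM in them and 6.58 to 24.3 in the others, and Fasn had 31.8 to 43.4 and 17.3 to 24.6. Acat2 went the other way, with 59.2 to 77.5 and 178 to 439, and so did Idi1, with 0 to 1.35 and 2.49 to 8.66. Without these 2 libraries, an alternative chosen after seeing the data, none was called, and 12 members were lower at an unadjusted p under 0.05 beside 9.11% of all genes. The values of Fads2 and Srebf2 were then -1.68 and -2.48, whereas Idi1 had -0.56, Sc5d -0.43 and Cyp51 -0.32, each above that threshold, and Acat2 had 0.66. Kdm6b-cKO libraries 0 and 1 were also shallow, at 344000 and 836000 reads. Of the others, library 5 had 188000 reads and the rest 2750000 to 2860000, so Rn45s and depth cannot be fully told apart. Whether Rn45s or depth plays a part in these values was not tested.

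At P30 no member was called either, against 37 of 13289 genes (0.278%). The broad lean of P1 was smaller, with 24 of 40 members lower and a median fold change of -0.07, where 54.8% of all genes were lower with a median of -0.05. The sterol group had 16 of 24 lower, the fatty acid group 4 of 10 and the sphingolipid group 4 of 6. A single member passed the adjusted p, where 0.286% of all genes passed and were lower. At an unadjusted p under 0.05, 5 members were lower (7.37% of all genes) and 1 was higher (5.34% of all genes), and in 2 members every Kdm6b-cKO library was under every WT library (1.05% of all genes). Of all genes at that unadjusted threshold, 58.0% were lower as analysed and 47.2% after quantile normalization.

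Srebf1 (mm9, chr11:60012591-60036083, minus strand) fell at P30. It had 13.4 to 18.0 FPKM in WT (median 16.4) and 7.16 to 12.0 in Kdm6b-cKO (median 8.82), with no overlap between the genotypes. The means were 16.1 ± 1.603 and 9.07 ± 1.93 FPKM (SD, n = 6), and the fold change was -0.84 ± 0.16 with a p of 1.49e-04, an adjusted p of 0.0445 and an exact permutation p of 0.00216. This is under 2-fold and close to the threshold: with single libraries left out the adjusted p ran from 0.0384 to 0.138, and it stayed under 0.05 only without Kdm6b-cKO library 2 or 3. It was 0.0520 after quantile normalization and 0.0585 without the variance trend. Among libraries with high Rn45s the difference was -0.63 (5 WT, 3 Kdm6b-cKO, exact permutation p of 0.0179, the smallest possible), and among the others it was -0.84 (1 WT, 3 Kdm6b-cKO). Rn45s levels were not matched between genotypes among the libraries with high Rn45s. The locus overlaps Rai1 on the other strand, and whether the counting used strand is not given in the sources used here.

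The summed level of the 5 sterol regulators at P30 was 87.0 to 103 FPKM in WT and 73.4 to 82.8 in Kdm6b-cKO, without overlap. This sum contains Srebf1, so it is no separate result, and no share over all genes was formed for such sums. Srebf2 (mm9, chr15:81977696-82035806, plus strand) had 18.9 to 24.9 FPKM in WT (median 23.2) and 6.60 to 21.4 in Kdm6b-cKO (median 13.2). Of the Kdm6b-cKO libraries 4 were under the whole WT range and 2, both with high Rn45s, lay within it, and the fold change was -0.75 ± 0.25 with an adjusted p of 0.235. Scap, the sterol sensor that escorts both factors, had a fold change of -0.35 ± 0.18, while Insig1 and Insig2, which hold the factors back in the endoplasmic reticulum, had 0.11 ± 0.43 and 0.41 ± 0.32. None of these 3 passed the test.

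Among the sterol enzymes, many of them targets of the SREBF factors, 12 of 16 tested were lower at P30, with a median fold change of -0.16 as analysed and -0.04 after quantile normalization. Tm7sf2, a sterol reductase, had 24.3 to 39.8 FPKM in WT (median 32.5) and 17.4 to 28.2 in Kdm6b-cKO (median 27.3), with a fold change of -0.40 ± 0.18 and an adjusted p of 0.378. Its groups overlapped at the 2 lowest WT libraries, and the locus overlaps 1110014N23Rik on the same strand. Of the other 15 tested sterol enzymes none had an unadjusted p under 0.05, and over the sterol group the 21 such members ran from -0.53 for Apoe to 0.49 for Msmo1, a methylsterol oxidase, with standard errors of 0.16 to 0.53. All 10 fatty acid members were also above that threshold, from -0.73 for Fads1 to 0.40 for Elovl5. Elovl1, the elongase of very long chains and the most abundant fatty acid gene at P30, had 27.1 to 50.3 FPKM in WT (median 33.4) and 25.6 to 57.2 in Kdm6b-cKO (median 34.1), with a fold change of 0.07 ± 0.24. Acly, the next, had 11.2 to 15.3 FPKM in WT (median 14.4) and 12.2 to 24.9 in Kdm6b-cKO (median 18.5), with a fold change of 0.36 ± 0.19.

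The sphingolipid group held both the largest decreases and the only increase at an unadjusted p under 0.05. Gal3st1 (mm9, chr11:3883639-3899329, plus strand) had 3.31 to 6.67 FPKM in WT (median 5.60) and 1.08 to 3.03 in Kdm6b-cKO (median 2.21), without overlap. The fold change was -1.30 ± 0.28, with an adjusted p of 0.0726 and an exact permutation p of 0.00216. Fa2h (mm9, chr8:113869035-113917724, minus strand) had 2.72 to 9.44 FPKM in WT (median 4.12) and 1.00 to 3.66 in Kdm6b-cKO (median 2.14). These rest on 32 to 170 reads per WT library and 5 to 58 per Kdm6b-cKO library. The 3 Kdm6b-cKO libraries with low Rn45s overlapped the lower WT libraries and the other three lay at 1.00 to 1.15 FPKM, and the fold change was -1.13 ± 0.41 with an adjusted p of 0.267.

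Ugt8a, the third enzyme particular to myelin galactolipids, was close to the filter, with 0.926 to 2.74 FPKM in WT and 0.629 to 1.47 in Kdm6b-cKO, and its fold change was -0.46 ± 0.38. Sptlc1 had 16.0 to 24.6 FPKM in WT (median 18.7) and 17.6 to 32.5 in Kdm6b-cKO (median 28.7), with a fold change of 0.46 ± 0.17 and an adjusted p of 0.287. Its groups overlapped, with 4 Kdm6b-cKO libraries above the whole WT range and 2 inside it. Cers2 had 16.4 to 50.7 FPKM in WT (median 24.3) and 21.0 to 41.4 in Kdm6b-cKO (median 30.2), with a fold change of 0.28 ± 0.26.

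Myelin markers moved in the same libraries. All 17 genes of the marker list of myelin and mature oligodendrocytes were lower in Kdm6b-cKO at P30, 12 of them at an unadjusted p under 0.05 and 4 called. Their sum ran from 378 to 754 FPKM in WT (median 495) and from 185 to 294 in Kdm6b-cKO (median 240), without overlap, and no marker of the list was at 0 in all libraries. The 8 tested markers of GABAergic neurons were all higher (5 at that threshold), with overlapping sums of 41.5 to 529 and 196 to 376 FPKM. Of the glutamatergic neuron markers 7 of 9 were lower (2), and of the astrocyte markers 7 of 10 (2, with 1 higher). For oligodendrocyte precursors 6 of 9 were lower (1, which was called). For microglia 4 of 6 tested were higher (2), and for endothelial and mural cells 1 of 2 (0). Of all genes 54.8% were lower, 7.37% were lower and 5.34% higher at that threshold, and 0.278% were called. The part of these shifts in the values of Gal3st1, Fa2h and Srebf1 was not tested.

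The members with the highest levels at P30 acted in sterol turnover and transport. Cyp46a1 had 177 to 208 FPKM in WT (median 187) and 140 to 297 in Kdm6b-cKO (median 219), with a fold change of 0.14 ± 0.22. The WT libraries were tightly grouped, whereas the Kdm6b-cKO libraries fell on both sides of them: the 3 with high Rn45s had 260 to 297 FPKM and the other three 140 to 178. Apoe had 105 to 304 FPKM in WT (median 169) and 50.8 to 180 in Kdm6b-cKO (median 140), with a fold change of -0.53 ± 0.32 and an adjusted p of 0.518. Abca1, the exporter that loads lipid onto Apoe, had a fold change of 0.17 ± 0.24.

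**Figure D3:**
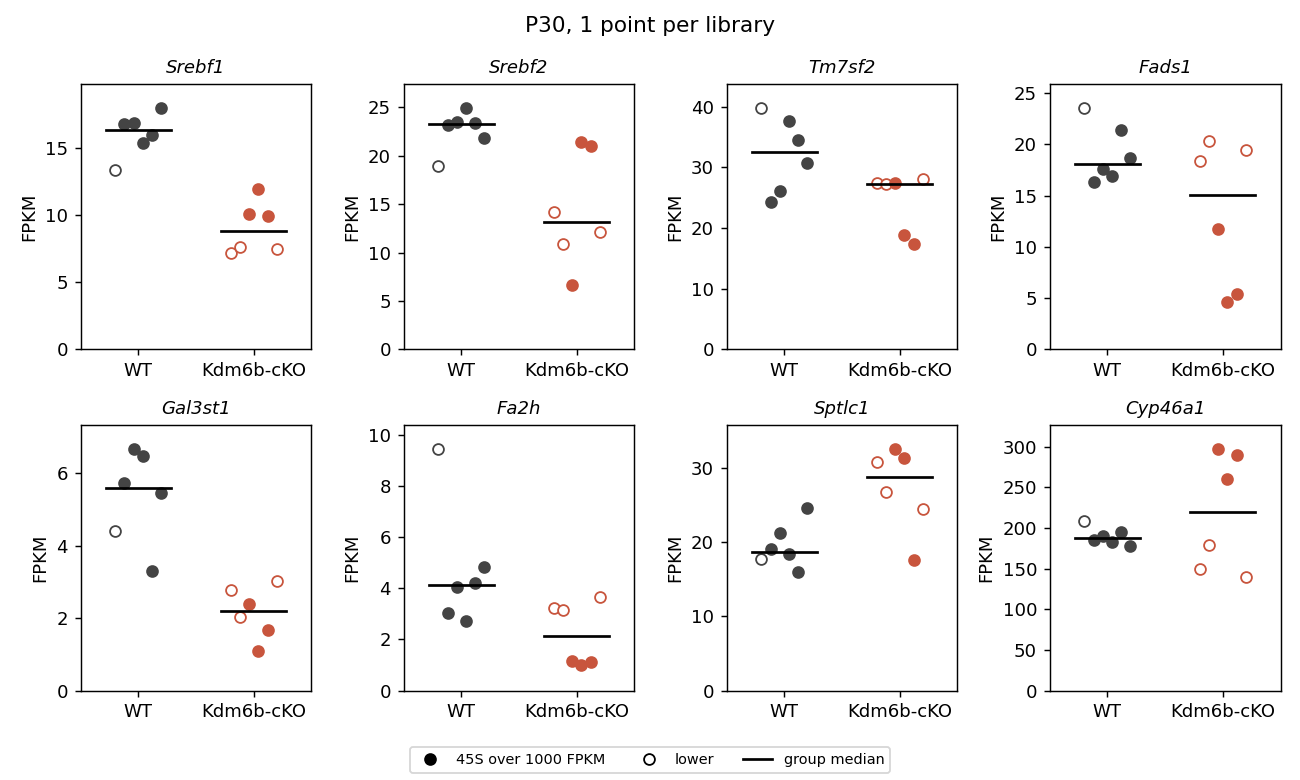
FPKM of 8 members in each P30 library, with WT left and Kdm6b-cKO right in each panel (6 libraries each); lines are group medians and filled points are libraries with over 1000 FPKM of Rn45s (45S). Srebf1 and Gal3st1 do not overlap between genotypes, and the filled and open Kdm6b-cKO points separate for Srebf1, Fads1, Fa2h and Cyp46a1.

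The separation inside the Kdm6b-cKO group at P30 was seen for 19 of the 40 tested members (47.5%), 10 higher and 9 lower in the libraries with high Rn45s, and for 46.2% of all genes. Fasn, the fatty acid synthase, had 12.8 to 23.3 FPKM in the 3 libraries with high Rn45s and 5.75 to 6.07 in the others, and Acaca had 8.26 to 15.4 and 3.05 to 3.70. Mvk, mevalonate kinase, had 20.4 to 41.4 and 8.10 to 9.96. Fads1 went the other way, with 4.58 to 11.7 and 18.3 to 20.3, and so did Fa2h, with 1.00 to 1.15 and 3.14 to 3.66. Depth differed between the same libraries, so Rn45s and depth cannot be told apart here.

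The P30 calls depended on how this split was handled. The split at 1000 FPKM does not match Rn45s levels between genotypes. With the Rn45s class as a term, 3 members were called, Fa2h at -1.61 (adjusted p of 0.00362), Gal3st1 at -1.40 (0.0135) and Fads1 at -1.11 (0.0191), beside 4.14% of all genes, and 8 passed the adjusted p, beside 1416 genes (10.7%). Without the 3 libraries under 3000000 reads, an alternative added after seeing the data, 2 were called, Srebf1 at -1.10 (0.00468) and Mvk at -1.23 (0.0326), beside 3.13% of all genes, and 7 passed the adjusted p, beside 834 genes (6.29%). Fa2h was then -0.36 with an adjusted p of 0.512. Srebf1 passed the adjusted p and was lower in both, and Gal3st1 did so too, at -0.98 (0.0466) without the shallow libraries. The fit without shallow libraries is no second check. Its 3 Kdm6b-cKO libraries all had low Rn45s, whereas 5 of the WT libraries had high Rn45s. Genotype and Rn45s class cannot be fully told apart in that fit. For Mvk the difference was 0.41 among libraries with high Rn45s (5 WT, 3 Kdm6b-cKO) and -0.58 among the others (1 WT, 3 Kdm6b-cKO).

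Whether the genotype effect differed with age was tested in 1 fit of the 24 libraries, for the 12644 genes (37 members) that passed the filter at both ages. No member passed the adjusted p, and 1 gene did in all (0.00791%). At an unadjusted p under 0.05 there were 5 members, each with a less negative or more positive fold change at P30 than at P1, against 6.88% of all genes in that direction, and 0 in the other, against 6.31%. The differences, P30 minus P1, were 1.48 ± 0.47 for Fads2, 1.11 ± 0.43 for Msmo1, 1.05 ± 0.43 for Sqle, 0.99 ± 0.42 for Cers2 and 0.85 ± 0.28 for Acly, with adjusted p-values of 0.197 to 0.321. Srebf1 differed by -0.56 ± 0.39 with an adjusted p of 0.557, so that its lower level at P30 was not shown to be particular to that age.

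**Figure D4:**
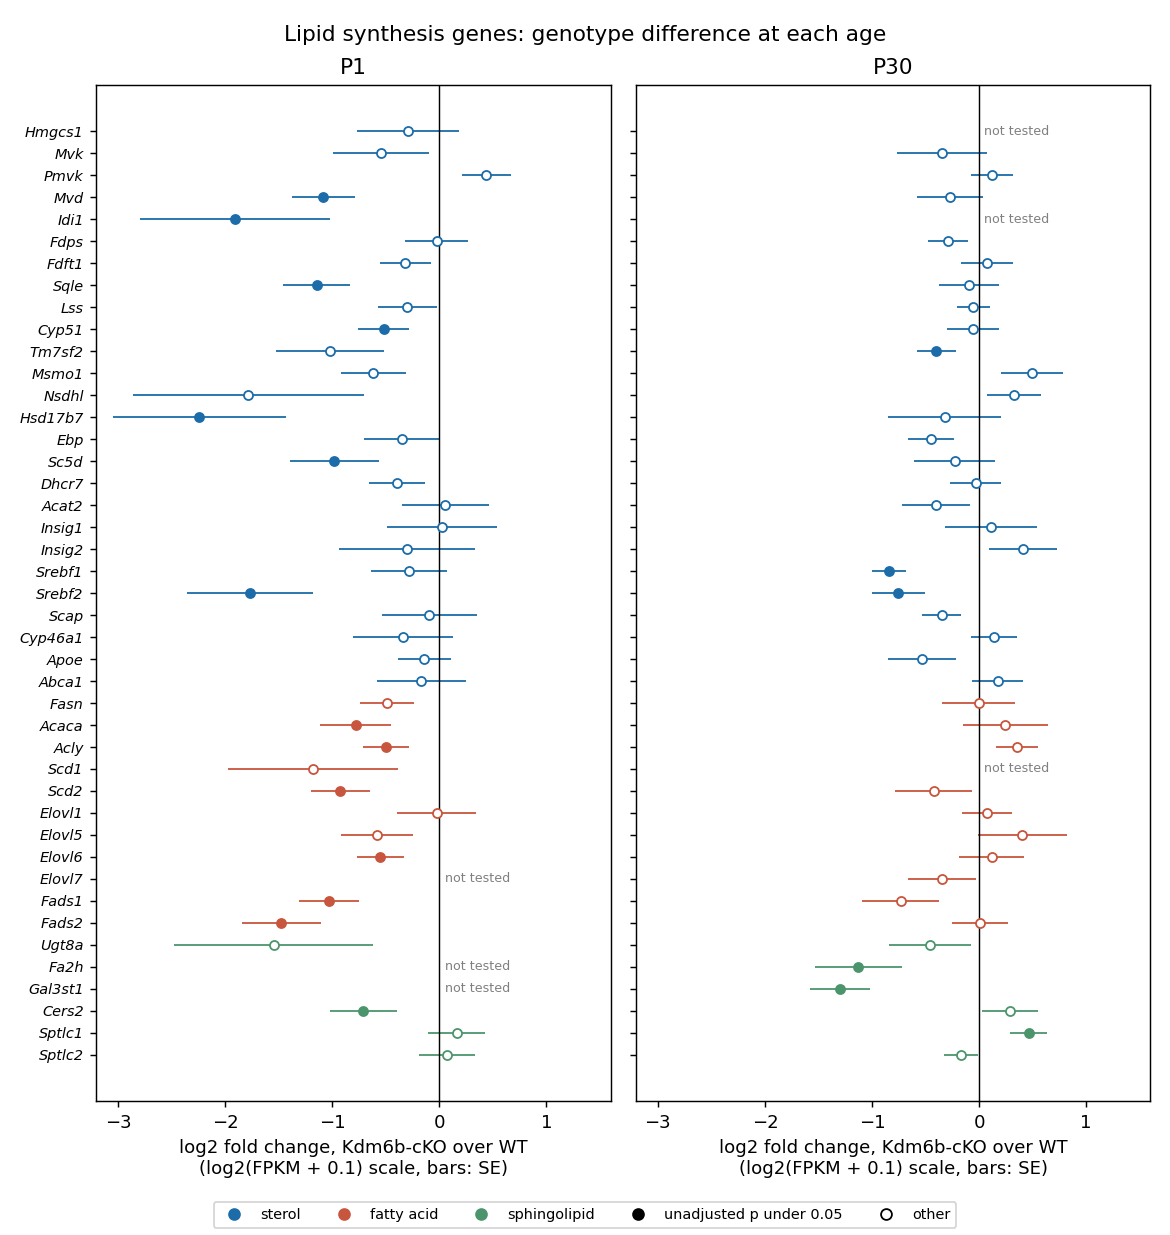
Log2 fold change of Kdm6b-cKO over WT for the tested members at P1 (left) and P30 (right), on the log2(FPKM + 0.1) scale, with bars of 1 SE from limma and 6 libraries per group; filled points have an unadjusted p under 0.05. At P1, 35 of 40 tested members lie left of 0, and at P30 24 of 40, with Srebf1, Srebf2, Fa2h and Gal3st1 farthest left among the filled points.

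Of 56 other genes of sterol handling, fatty acid activation and sphingolipid or ether lipid metabolism, 51 were tested at P1 and 40 were lower, with a median fold change of -0.42, 8 lower at an unadjusted p under 0.05 and 0 higher. Of all genes at P1, 63.2% were lower with a median of -0.25, and 7.77% were lower and 6.7% higher at that threshold. At P30, 49 were tested and 27 were lower (55.1%), with a median of -0.06, 5 lower at that threshold and 3 higher. Of all genes at P30, 54.8% were lower with a median of -0.05, and 7.37% were lower and 5.34% higher at that threshold. None was called at either age, where 0% of all genes were called at P1 and 0.278% at P30. In none did the libraries of the genotypes lie fully apart. Every Kdm6b-cKO library was under every WT library in 0.683% of all genes at P1 and 1.05% at P30. The other fatty acid genes leaned lowest at P1, with 14 of 15 lower and a median of -0.78.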

How the data were processed

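RNA of SUN1-GFP-positive cortical nuclei was sequenced in 24 libraries. The authors aligned reads to mm9 with HISAT2 and deposited FPKM values per gene and library, made and scaled with Cuffdiff (the study's text calls them RPKM); tool versions and the annotation are not given in the sources used here. Positions of genes are from the GENCODE annotation of that build. The deposited Cuffdiff comparisons (group values, fold changes and p-values) were not used. Columns of the tables name the genotype and age but not the replicate number of the labels, so libraries keep their column numbers, 0 to 5.

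Genotypes were compared with limma 3.58.1 in R 4.3.3 (linear model, empirical Bayes with trend, two-sided) on log2(FPKM + 0.1) after a filter at a mean of 1 FPKM, in place of a count test, which FPKM does not allow. Single genes were also compared by exact two-sided permutation of the 12 libraries. Depth was estimated from the spacing of low FPKM values for fragments of 200 bases, and intervals for counting error were not formed. The procedure was tested on simulated data with changes larger than most of those reported here, so that test does not measure power for them.

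The members and all lists were chosen with earlier results of these data known. Values by library are given for members called, past an adjusted or unadjusted p of 0.05 or not overlapping at an age, and for the 2 with the highest mean in each group; other pathway genes are named only if called or not overlapping. Alternatives were other pseudocounts, filters, scalings and variance priors, library weights, a term for a technical split, leaving out libraries and, added after seeing the data, depth weights and leaving out shallow libraries or, at P1, those with high Rn45s.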

Additional observations from a re-analysis of the deposited data

Results flagged for a closer look

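In 10 of 92 groups of 6 libraries (23 named members, 2 genotypes, 2 ages) the highest or lowest library stood far from the other five by Dixon's ratio. The limit used marks about 1 in 20 groups of independent, normally distributed values. Here FPKM was not put on a log scale and the members share libraries, so the 10 groups cannot be set against that rate. At P1, the highest WT library had 100.3 FPKM of Fads2 (next 72.8) and 73.7 of Fads1 (next 53.6), both in WT library 5, and WT library 1 had 52.4 of Tm7sf2 (next 31.1). Kdm6b-cKO library 4 had 78.6 FPKM of Sqle (next 40.7). Kdm6b-cKO library 5, the shallowest at 188000 reads, had 2.27 FPKM of Fa2h, which is 1 read, where the other five were listed at 0, and 2.95 of Gal3st1 (next 1.01).

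At P30, WT library 0, the only WT library with low Rn45s, was the highest for Scd2 at 19.7 FPKM (next 11.7), Fa2h at 9.44 (next 4.84) and Cers2 at 50.7 (next 26.4). WT library 4 was the lowest for Acly, at 11.2 FPKM (next 14.1).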

How the results depend on the processing

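No paired analysis was possible because the library columns do not carry the replicate numbers of the labels. The count of members whose effect differed between ages stayed at 0 under all alternatives run. At P1, members called or past the adjusted p were 0, but 3 with depth weights and 0 to 2 with single libraries left out (2 without Kdm6b-cKO library 4, Sqle and Fads2). Members lower at an unadjusted p under 0.05 were 14 as analysed (7.77% of all genes), 9 without the variance trend (7.43%) and 18 after quantile normalization (8.57%). They were 8 to 16 with single libraries left out (8 to 10 without WT library 0, 2, 3, 4 or 5 or Kdm6b-cKO library 5). With single libraries left out, 5.11% to 12.6% of all genes were lower at that threshold. Members higher were 0, but 1 with estimated library weights, depth weights or without the libraries of high Rn45s and 0 to 1 with single libraries left out. At P30, members called were 0, but 2 with estimated library weights (3.99% of all genes called), 3 with the technical split (4.14%) and 2 without shallow libraries (3.13%). Members past the adjusted p were 1 as analysed, 0 after quantile normalization or without the trend, 8 with estimated weights (14.2% of all genes), 8 with the split (10.7%), 7 without shallow libraries (6.29%) and 0 to 1 with single libraries left out. Members lower at an unadjusted p were 5 (7.37% of all genes), but 3 at a mean of at least 5 FPKM (7.6%), where Fa2h is no longer tested. They were 8 with estimated weights (17.5% of all genes) and 10 with the split (15.8%). Members higher were 1, but 5, 3 and 4 with estimated weights, the split and without shallow libraries, and 1 to 2 with single libraries left out. For the counts of members higher at either age, the share over all genes under each alternative is not given here.

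Of the members tested, up to 5 at P1 and up to 10 at P30 turned direction under 1 alternative, and none of them was a member with an unadjusted p under 0.05 as analysed. Among the members with values by library these were Acat2 at P1 to -0.43 after quantile normalization and within -0.24 to 0.34 with single libraries left out, and at P30 Elovl1 to -0.23, -0.068 and -0.33 and Cyp46a1 to -0.20, -0.053 and -0.29 with estimated weights, depth weights and without shallow libraries, and Acly to -0.015 in the last. Elovl1 ran from -0.055 to 0.18 with single libraries left out. Over all genes, the 37 calls at P30 ran from 2 to 43 with single libraries left out. The cause of these changes was not tested. At P1 the depth of 188000 to 3920000 reads limits what could be detected for low genes such as Fa2h.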
